A study of Homo sapiens with 24 samples.

Results

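HL-60 is a human leukaemia cell line of promyeloblast type, and the question here was whether all-trans retinoic acid (ATRA) and arsenic trioxide (ATO) acted on its transcripts independently of each other. Of the 24 libraries of the series, the 12 from HL-60 were used, 3 in each of 4 groups: untreated, ATRA at 1 µM, ATO at 0.8 µM, and both drugs together, each treatment lasting 48 h. The labels list the cells as wild type in every group, give no separate doses for the combination and do not state how long the untreated cells were grown. The deposited table held 60655 genes, of which 15895 had enough reads in HL-60 to be tested. The 3 libraries of a group carry batch numbers, but nothing states that each came from its own culture. The p-values therefore reflect the spread among these libraries, which may be technical.

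ATRA is the natural ligand of the retinoic acid receptors and drives immature myeloid cells towards granulocytes. Arsenic trioxide binds protein thiols, raises oxidative stress and, in acute promyelocytic leukaemia, degrades the PML-RARA fusion protein, which HL-60 does not carry. The 2 drugs are given together in that disease, which is why their joint action on a line without the fusion is of interest.

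The interaction was measured for each gene as the change that ATO made in the presence of ATRA (combination minus ATRA) less the change that ATO made on its own (ATO minus untreated), on the log2 scale. A value of 0 means that the fold changes of the single drugs multiply to give the level with both. A positive value means that the combination stood above that product and a negative value below it. Levels are CPM, the reads of a gene as a share of the library's total scaled to a common size, after correction for library composition, and do not compare one gene with another because they are not corrected for length. A log2 value after a gene is its interaction ± SE from edgeR's quasi-likelihood test over the 12 libraries (n = 3 per group), and a gene was called at a Benjamini-Hochberg adjusted p below 0.05.

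Library totals ran from 37811652 to 57795273 counts. Combination replicate 2 stood apart from its group: its counts differed from those of replicates 1 and 3 with a chi-square of 25.9 and 18.4 per degree of freedom, against 5.68 between replicates 1 and 3 and 4.77 to 14.9 within the other groups. It was also deeper, with 51771732 counts against 38063249 and 37811652. Where calls of genes described below changed without it, or counts given for a list moved by over 1.5 times, this is stated there. Also called without it, but not over all 12 libraries, were GSTP1 (-0.23, adjusted p 0.00901 by edgeR), NOLC1 (0.14, 0.0281), FDPS (-0.15, 0.0297) and MT-CO1 (0.17, 0.00589). The defining genes of a promyelocytic line were present in every untreated library, where the 11 markers summed to 5340 to 5980 CPM. Of 12 monocyte and macrophage markers, 4 had 0 reads throughout and 7 stayed under 1 CPM in every library. The sum of that list was 22.0 to 24.0 CPM in untreated cells, 62.6 to 67.8 with ATRA, 43.6 to 46.8 with ATO and 200 to 210 with both. Most of the sum with both was VSIG4, at a mean of 124 CPM, and MARCO stood at 20.0 CPM. Of the 6 tested members, the combination raised 5 against untreated cells and lowered 1. The interaction was called above 0 for 1 of the 6 and below 0 for 2. Lymphoid markers summed to 44.3 to 52.2 CPM untreated and 93.3 to 116 with both, eosinophil, basophil and mast cell markers to 38.4 to 41.1 and 7.98 to 13.8, and epithelial and stromal markers to 69.9 to 78.5 and 111 to 116. The part of these cell-type markers in the results below was not tested.

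An interaction was called for 5170 of the 15895 genes (32.5%): 2287 above 0 (14.4%) and 2883 below 0 (18.1%). For comparison, ATRA alone changed 48.6% of the genes, ATO alone 28.7%, and the combination 60.4% (30.7% higher and 29.7% lower). The combination differed from ATRA alone in 43.9% and from ATO alone in 54.5%. The departures below the product were the larger ones, with a median of -0.59 and 728 genes at 2-fold or more, while those above it had a median of 0.41 and 219 genes at 2-fold or more. Over all tested genes the median was -0.06. Of the genes called above 0, 1547 had their highest mean level in the combination (5144 of all tested genes did), and in 1180 all 3 combination libraries lay above the other 9, against a background of 16.4% of all tested genes. Of those called below 0, 1780 had their lowest mean in the combination (5478 of all tested genes did), and in 1346 all 3 combination libraries lay below the other 9 (background 15.0%). Since the combination enters the contrast by which these genes were called, the counts describe their levels and are no further support. Without combination replicate 2 the call count was 6208, with 2703 above and 3505 below 0.

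**Figure D1:**
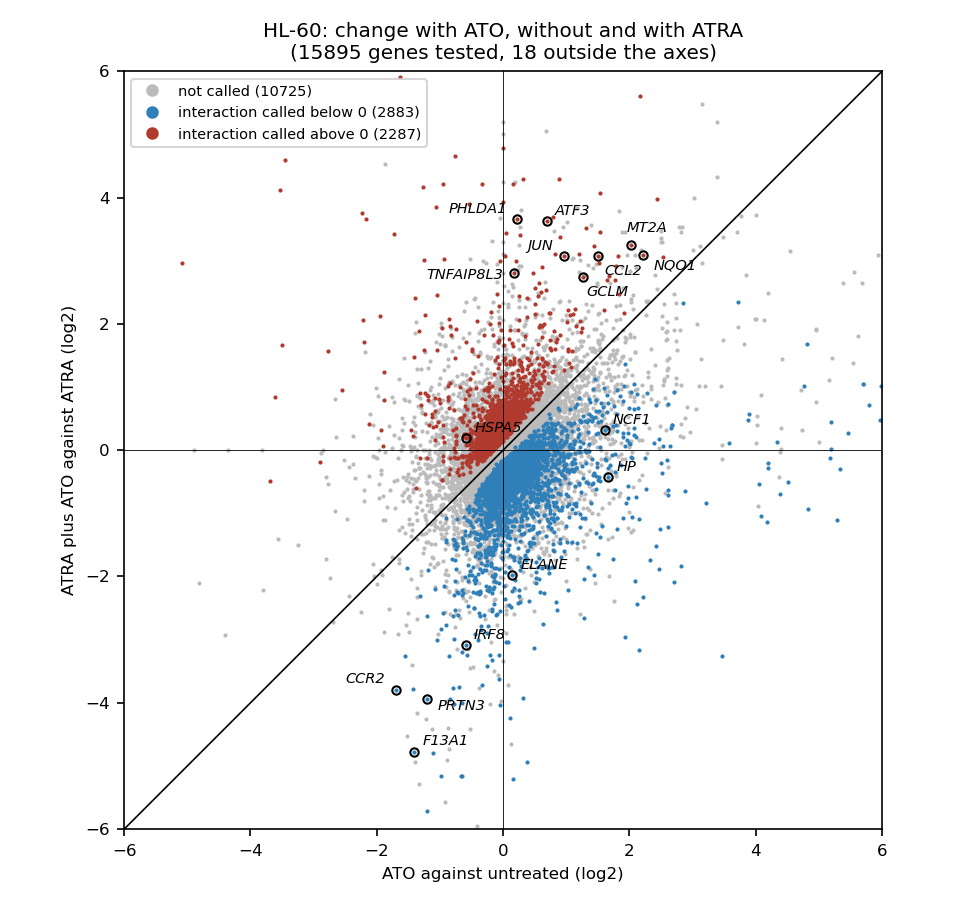
Each point is 1 of 15895 genes, with the log2 change made by ATO alone on the horizontal axis and the log2 change made by ATO on top of ATRA on the vertical axis. Genes on the diagonal have no interaction. The 2287 genes called above it (red) and the 2883 called below it (blue) lie on either side, and 18 genes fall outside the axes.

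Because the scale decides what counts as no interaction, the sign was also taken on CPM, where single-drug differences add instead of multiplying. Of the genes called above 0, 2280 kept the sign and 7 did not. Of those called below 0, 2743 kept it and 140 (4.86%) turned positive. Among the named genes this holds for EDNRB, RXFP1, ADGRG3, ZDHHC11B, F13A1, CYBB, NCF1, MPO, PRTN3, AQP9 and BCL2A1, all described below, so their sign depends on the scale.

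The levels of single genes show the kinds of departure. JUN, which encodes a subunit of the AP-1 transcription factor, measured 13.7, 12.5 and 12.0 CPM in untreated cells, 32.3, 33.6 and 27.5 with ATRA, 22.2, 26.1 and 25.9 with ATO, and 259, 253 and 276 with both. The single-drug folds multiply to 60.5 CPM, and all 3 combination libraries lay above that and above the other 9 libraries (2.11 ± 0.109, adjusted p 3.54e-12 by edgeR). ATF3, a stress-induced factor of the same bZIP class, measured 3.43, 3.94 and 2.97 CPM untreated, 3.94, 5.81 and 5.68 with ATRA, 4.72, 5.74 and 6.30 with ATO, and 57.8, 65.5 and 68.5 with both (2.94 ± 0.193). The single-drug libraries of ATF3 lie at or slightly above the highest untreated one, and the combination libraries lie far above all of them. PHLDA1, an early-response gene, stood at 0.751, 1.35 and 0.974 CPM untreated, 6.46, 6.34 and 6.82 with ATRA, 0.911, 1.11 and 1.66 with ATO, and 80.3, 76.1 and 92.3 with both (3.44 ± 0.258). ATO alone made no called change in PHLDA1 (0.23 on the log2 scale, adjusted p 0.49), while on top of ATRA it raised it by 3.66.

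**Figure D2:**
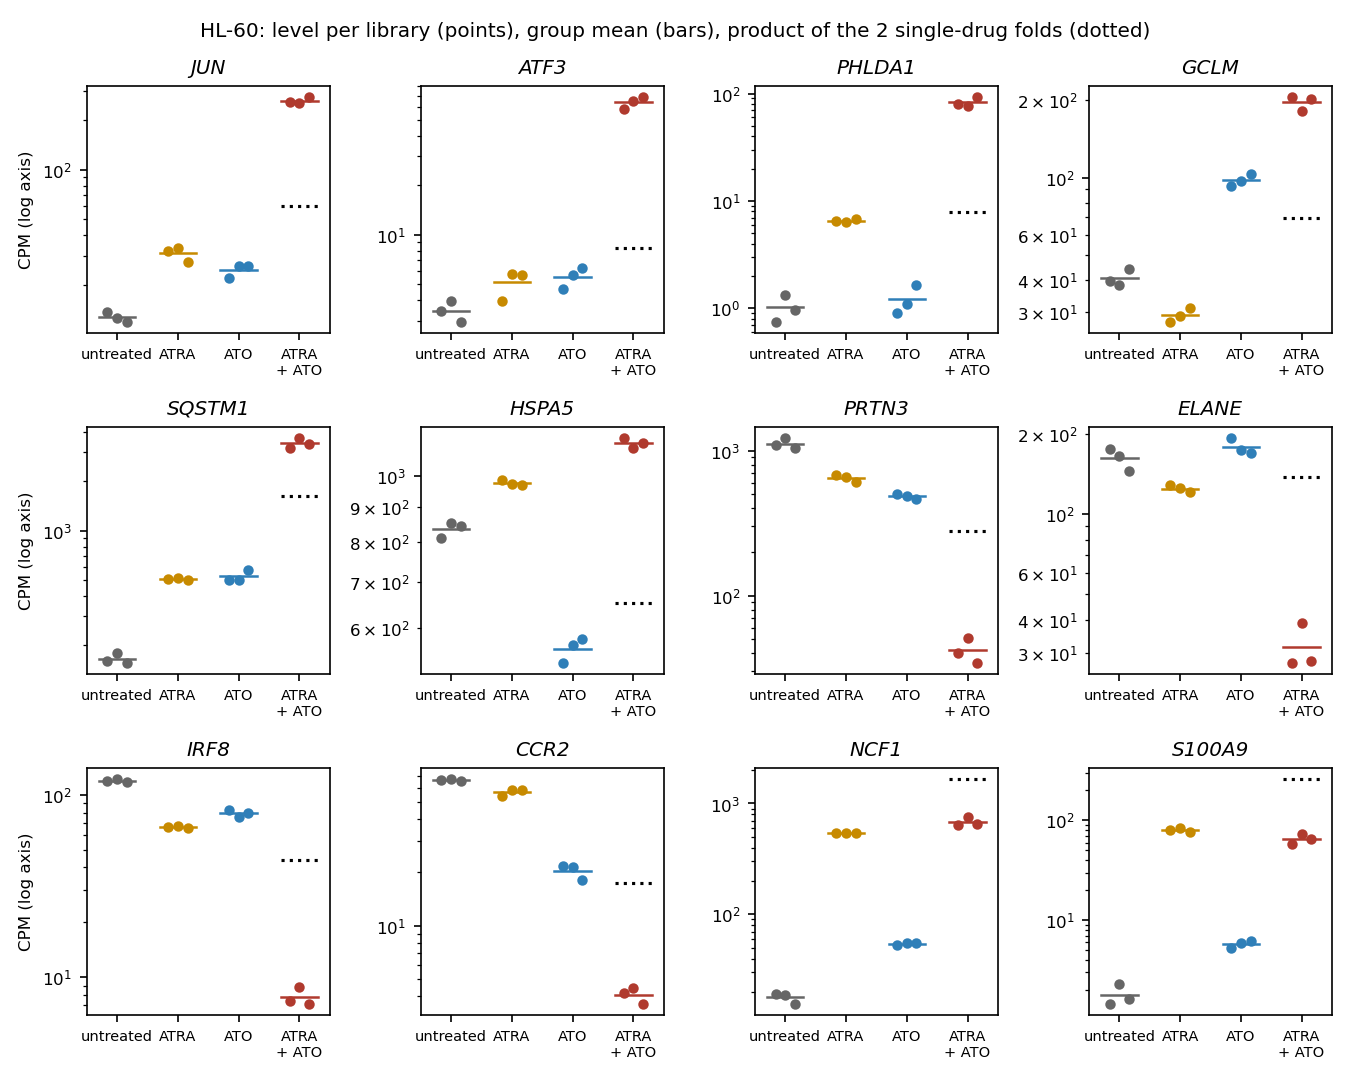
Levels of 12 genes in the 12 HL-60 libraries, in CPM on a log axis. Points are libraries, bars are group means, and the dotted line marks the level at which the single-drug folds would multiply without interaction. The combination stands above the dotted line for JUN (262 against 60.5 CPM), and below it for PRTN3 (41.8 against 281 CPM) and S100A9 (65.6 against 259 CPM).

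Several lists of stress-response genes had more members above 0 than below. NRF2 is the transcription factor that switches on antioxidant and detoxifying genes when thiols are modified. Of 28 tested NRF2 targets, 14 had an interaction above 0 and 3 below it, with a list median of 0.21 against -0.06 for all genes. ATO alone raised 24 of the 28 and ATO on top of ATRA raised 23, and in 21 all combination libraries lay above the other 9. GCLM, the modifier subunit of the enzyme that starts glutathione synthesis, measured 39.8, 38.3 and 44.3 CPM untreated, 27.6, 28.9 and 31.1 with ATRA, 92.9, 97.0 and 103 with ATO, and 205, 180 and 202 with both (1.48 ± 0.0929, adjusted p 7.65e-11 by edgeR). ATRA alone lowered GCLM, and yet the combination gave its highest level. SQSTM1, an autophagy receptor that is also an NRF2 target, stood at 161, 178 and 156 CPM untreated, 505, 514 and 502 with ATRA, 502, 498 and 578 with ATO, and 3213, 3664 and 3394 with both (1.08 ± 0.0795). The ATRA and ATO libraries of SQSTM1 overlap, and the combination libraries all lie above the product of 1618 CPM.

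Other NRF2 targets called above 0 were the NADPH-producing enzyme ME1 (1.13 ± 0.0933), the thioredoxin reductase TXNRD1 (0.92 ± 0.0624) and the quinone reductase NQO1 (0.87 ± 0.0818). TXNRD1 had means of 339, 399, 463 and 1029 CPM in untreated, ATRA, ATO and combination cells. The ferritin heavy chain FTH1 was above the product (0.53 ± 0.0707) and the light chain FTL below it (-0.36 ± 0.0842), although both were highest in the combination. PGD, a pentose phosphate enzyme, was the most abundant member without a call: its means of 206, 757, 375 and 1388 CPM gave an interaction of 0.01 ± 0.0631. HMOX1, the haem oxygenase and the strongest ATO target of the panel, measured 0.986, 0.860 and 1.02 CPM untreated, 8.20, 7.96 and 6.78 with ATRA, 74.2, 70.0 and 85.5 with ATO, and 820, 1006 and 912 with both. Its interaction was small beside those changes (0.57 ± 0.194, adjusted p 0.0283 by edgeR), and the call was lost without untreated replicate 1 (0.54, adjusted p 0.0893), without untreated replicate 3 (0.51, adjusted p 0.112) and without ATRA replicate 3 (0.49, adjusted p 0.0614). The HMOX1 call was also lost with limma-voom (adjusted p 0.275), halved counts (0.0809) and the fit of 24 libraries (0.0616).

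Metallothioneins bind metal ions through their cysteines. The metallothionein list also holds the zinc exporter SLC30A1 and the metal-responsive factor MTF1. Of its 7 tested genes, 2 were above 0 (28.6%) and 1 below (14.3%), against 14.4% and 18.1% of all tested genes. The calls below numbered 2 without untreated replicate 2, ATO replicate 3 or combination replicate 2, and with the batch block. MT2A measured 20.6, 22.9 and 16.3 CPM untreated, 2.37, 3.42 and 2.42 with ATRA, 78.3, 82.8 and 82.9 with ATO, and 21.3, 33.0 and 24.4 with both (1.23 ± 0.206, adjusted p 8.02e-05 by edgeR). ATRA lowered MT2A and ATO raised it, and the combination stood slightly above untreated cells (0.40 on the log2 scale, adjusted p 0.011), above the product of 11.2 CPM and far under ATO alone. On CPM the difference of differences is negative (-37.9), so the sign for MT2A turns with the scale. MT1E went the other way: ATO raised it from a mean of 6.66 to 13.9 CPM on its own, but left it at 1.60 and 1.52 CPM without and with ATO in the presence of ATRA (-1.12 ± 0.22). SLC30A1 was highest in the combination, with means of 71.5, 145, 97.0 and 275 CPM (0.48 ± 0.081). Of genes for arsenic uptake and handling, 2 of 9 tested were called, both below 0 (22.2%, against 18.1% of all tested genes). Both had an adjusted p above 0.03, so they depend on single libraries. The arsenite channel AQP9 (-1.88 ± 0.667, adjusted p 0.0343 by edgeR) lost its call in 5 of the 12 leave-one-out fits, with DESeq2 (adjusted p 0.0607), limma-voom (0.143), halved counts (0.103), the fit of 24 libraries (0.0846) and every gene with a read (0.0522).

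The unfolded protein response is the programme by which a stressed endoplasmic reticulum raises its chaperones. All 12 called members of the 19 tested lay above 0 and none below, with a list median of 0.24. The pattern of levels differed from that of the NRF2 targets, since ATO alone lowered 9 of the 19 members and raised 2. HSPA5, the main chaperone of the endoplasmic reticulum, measured 811, 853 and 845 CPM untreated, 984, 971 and 968 with ATRA, 533, 565 and 578 with ATO, and 1134, 1099 and 1116 with both (0.78 ± 0.0532, adjusted p 2.45e-10 by edgeR). ATO lowered HSPA5 in the absence of ATRA and raised it slightly in its presence. HSP90B1 (0.57 ± 0.064), the transcription factor XBP1 (0.57 ± 0.0657) and the co-chaperone DNAJC3 (0.60 ± 0.0793) also departed upwards. For HSP90B1 the combination mean of 718 CPM was still under the untreated 976, so the interaction there is a smaller fall and not a rise. CALR, the most abundant member, had no called interaction (0.04 ± 0.0502) at 2869, 1607, 2173 and 1249 CPM.

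Heat shock response genes encode chaperones that refold damaged proteins, mainly outside the endoplasmic reticulum. Of 17 tested, 11 were above 0 and 1, the small heat shock protein gene HSPB1, below it, with a list median of 0.28. Each single drug lowered most of the list, ATRA 14 members and ATO 11, while ATO on top of ATRA raised 9 and lowered 2. HSP90AA1, the inducible HSP90, measured 2328, 2219 and 2410 CPM untreated, 1764, 1838 and 1942 with ATRA, 1865, 1837 and 1908 with ATO, and 2414, 2118 and 2261 with both (0.60 ± 0.0632). The combination libraries of HSP90AA1 overlap the untreated ones and lie above every single-drug library. CHORDC1 (0.69 ± 0.0795) and HSPH1 (0.59 ± 0.0747) had the same shape, and the co-chaperone BAG3 rose with both drugs to 65.3 ± 6.46 CPM (SD, n = 3) from 15.2 ± 1.10 (0.81 ± 0.109). DNAJB1, an uncalled member, stayed at 92.4 to 97.6 CPM in every group mean. HSPA1A and HSPA1B, near-identical copies, had 0 to 2 reads in any library and were not tested.

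Promoter sequences are shown for these 2 groups because most of their called interactions lie on the same side of 0 and each has a known response element. The endoplasmic reticulum stress element was searched as CCAAT, any 9 bases and CCACG, on both strands of the 250 bases before each RefSeq start site (GRCh38.p14). It occurred in 26 of 35116 promoters (0.074%) and in 7 of the 17 unfolded protein response genes that had a promoter sequence: 5 of the 10 called above 0 and 2 of the 7 others. The upstream window of HSPA5, chr9:125241344-125241593 on the minus strand, is printed 5′ to 3′ with the match in capitals.

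HSPA5: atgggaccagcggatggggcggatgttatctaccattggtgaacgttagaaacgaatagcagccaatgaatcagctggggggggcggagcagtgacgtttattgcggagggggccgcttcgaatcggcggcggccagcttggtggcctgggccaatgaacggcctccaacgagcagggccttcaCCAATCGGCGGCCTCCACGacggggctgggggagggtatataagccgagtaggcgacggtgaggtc

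For other members, 30 bases around the match are shown 5′ to 3′ on the gene's strand, with the match in capitals. Where the element lies on the opposite strand, the capitals read as its reverse complement. CALR had a match and no called interaction.

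HSP90B1 (chr12:103930211-103930240, plus strand): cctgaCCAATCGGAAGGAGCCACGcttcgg
CANX (chr5:179698773-179698802, plus strand): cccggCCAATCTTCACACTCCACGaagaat
PDIA6 (chr2:10812847-10812876, minus strand): ccggaCCAATGAGCCGCAGCCACGgcttgg
XBP1 (chr22:28800597-28800626, minus strand): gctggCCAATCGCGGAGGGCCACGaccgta
CALR (chr19:12938379-12938408, plus strand): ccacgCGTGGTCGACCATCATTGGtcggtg

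The heat shock element was searched as GAA, TTC and GAA with any 2 bases between each, again on both strands. It occurred in 155 promoters (0.441%) and in 6 of the 18 heat shock genes with a promoter sequence. The 6 were 5 of the 11 called above 0 and 1 of the 5 others tested, and the rest of the 18 were not tested. These matches are descriptions of letters in the window and not evidence of binding.

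CHORDC1 (chr11:90223088-90223117, minus strand): cgcgaccgGAAAATTCGCGAAggttcctga
HSP90AA1 (chr14:102087111-102087140, minus strand): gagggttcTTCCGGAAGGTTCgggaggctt
HSPA8 (chr11:123062345-123062374, minus strand): gcgagcttGAAAGTTCCAGAAcgctgcggt
HSP90AB1 (chr6:44247770-44247799, plus strand): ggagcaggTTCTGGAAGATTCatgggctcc

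Targets of ATF4, the factor that raises amino acid supply when translation is curbed, did not share that direction. Of 27 tested, 12 were below 0 and 2 above, with a list median of -0.31. ATO alone raised 20 of the 27 and lowered none, whereas on top of ATRA it raised 14 and lowered 9. PHGDH, the first enzyme of serine synthesis, was raised by ATO alone from a mean of 115 to 169 CPM and lowered by ATO on top of ATRA from 45.0 to 30.5 (-1.12 ± 0.107). NUPR1 had a shortfall (-0.88 ± 0.0773) while still highest in the combination at 224 ± 18.6 CPM (SD, n = 3). The tRNA synthetase AARS1 was called below 0 (-0.46 ± 0.055) and ATF4 itself was not (0.08 ± 0.0596). ATF3, described above, and the cystine transporter SLC7A11 were the members above 0, and SLC7A11 is also counted among the NRF2 targets. DDIT3, the pro-apoptotic factor CHOP, had no called interaction (-0.18 ± 0.0979, adjusted p 0.184 by edgeR) at 14.2, 33.3, 21.5 and 44.6 CPM.

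Ribosome biogenesis factors and the mRNAs of the mitochondrial genome had called members above 0 alone. Among 32 biogenesis genes 17 were above 0 and none below, with a list median of 0.22. ATRA lowered 27 of them and ATO 28, and the combination lowered 26, so the single-drug falls did not add up. GNL3, a nucleolar GTPase, had means of 274, 193, 212 and 214 CPM (0.52 ± 0.0567), and LYAR 120, 54.9, 84.8 and 58.6 CPM (0.60 ± 0.0748). Without combination replicate 2 the list had 18 members above and 2 below 0. Of the 13 mitochondrially encoded mRNAs, 10 were above 0 and none below. ATO alone lowered 12 of the 13. All genes of the mitochondrial genome, not these 13 alone, took 5.79% to 6.33% of the counts in untreated cells, 5.96% to 6.66% with ATRA, 4.46% to 4.82% with ATO and 5.24% to 6.03% with both. MT-ND1 had 2853 ± 148 CPM untreated, 2896 ± 117 with ATRA, 2257 ± 110 with ATO and 3139 ± 116 with both (SD, n = 3; 0.45 ± 0.061). In the fit of all 24 libraries, 6 of the 13 were called above 0.

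**Figure D3:**
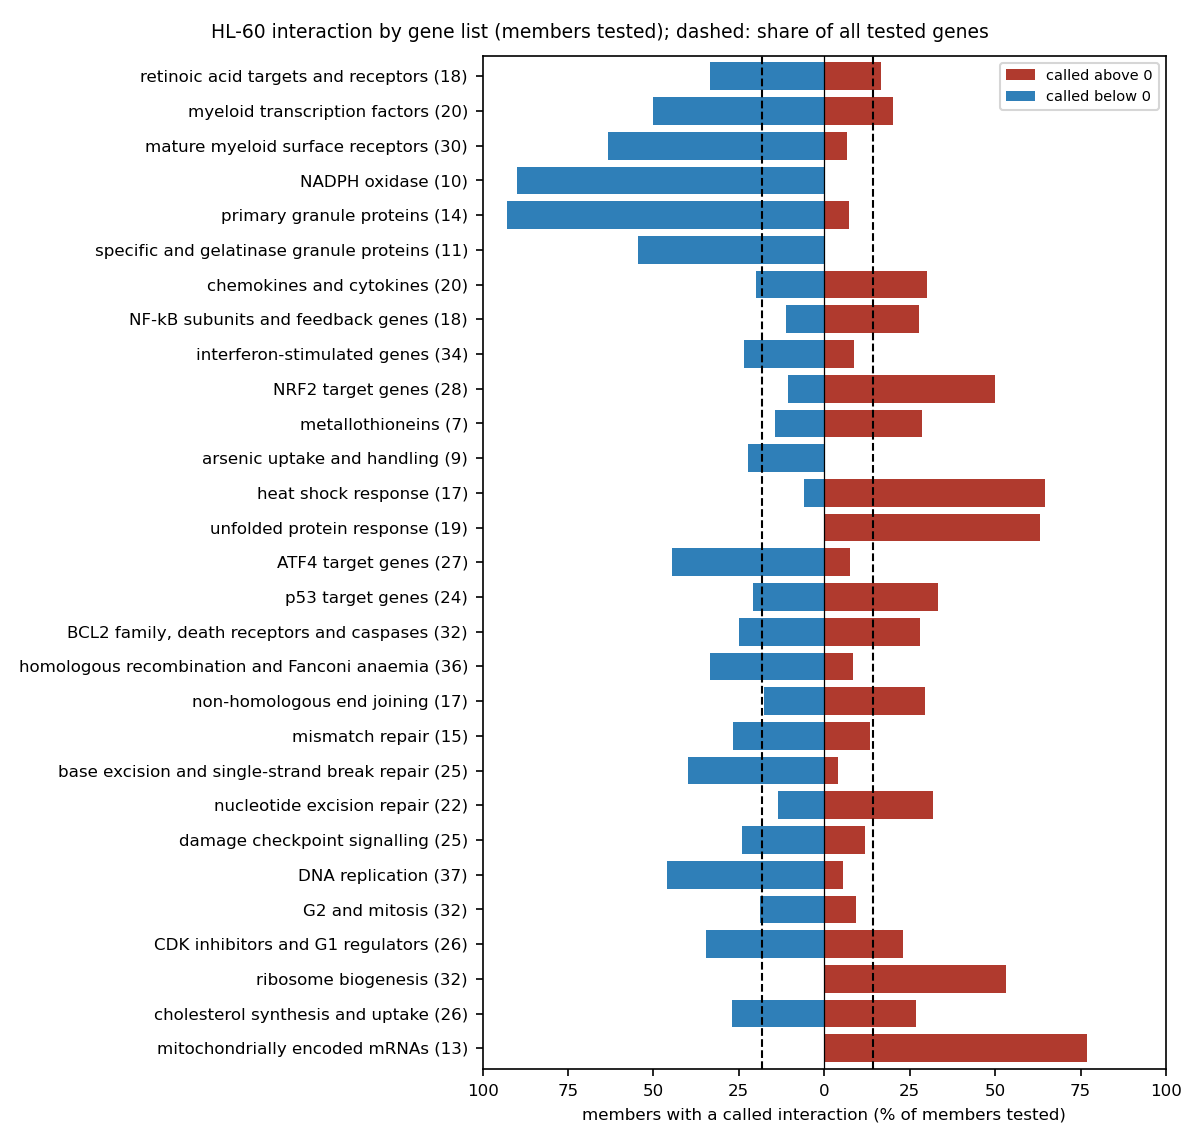
Share of the tested members of each gene list, cell-type marker lists left out, with a called interaction, below 0 to the left (blue) and above 0 to the right (red), in percent. The number tested is in parentheses, and the dashed lines mark the 18.1% and 14.4% of all 15895 genes. Of the lists drawn, primary granule, NADPH oxidase and surface receptor genes reach furthest left, and mitochondrially encoded, heat shock and unfolded protein response genes furthest right.

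On the myeloid side the interaction ran mostly below 0. Primary granules hold the proteases and peroxidase that promyelocytes make, and their genes are shut off as cells mature. Of 14 tested, 13 were below 0, with a list median of -1.35. PRG2, the eosinophil major basic protein, was the only one above (2.35 ± 0.853), at an adjusted p of 0.0381 by edgeR, with means of 3.56, 0.055, 3.38 and 0.252 CPM. No gene of the list was called above 0 without untreated replicate 1, ATRA replicate 2 or 3, any one of the ATO libraries, or combination replicate 2 or 3, nor by DESeq2 or limma-voom. PRTN3, the protease proteinase 3, measured 1091, 1216 and 1042 CPM untreated, 674, 655 and 611 with ATRA, 501, 486 and 466 with ATO, and 40.0, 51.0 and 34.4 with both (-2.74 ± 0.121, adjusted p 4.48e-13 by edgeR). The combination libraries of PRTN3 lie far below all the others, whose groups do not overlap either. ELANE, neutrophil elastase, measured 177, 166 and 146 CPM untreated, 121 to 129 with ATRA, 193, 175 and 170 with ATO, and 27.6, 39.0 and 28.1 with both (-2.12 ± 0.131). ATO made no called change in ELANE without ATRA (0.14, adjusted p 0.26) and lowered it by 1.98 on the log2 scale in its presence. MPO, the myeloperoxidase, went from a mean of 2169 ± 124 CPM to 321 ± 20.3 with ATRA, 1128 ± 34.2 with ATO and 71.8 ± 10.1 with both (SD, n = 3; -1.21 ± 0.095). LYZ (-0.84 ± 0.0612) and the granule proteoglycan SRGN (-0.80 ± 0.0561) followed with smaller departures. The promyelocytic markers as a list, all 11 of them called below 0, summed to 2970 to 3100 CPM with ATRA, 3580 to 3740 with ATO and 1200 to 1380 with both. In bulk RNA, fewer cells of a kind and less RNA per cell cannot be told apart, for these genes as for those below.

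The genes of specific and gelatinase granules, which appear later in granulocyte maturation, gave 6 calls below 0 and none above among 11 tested (1 above without combination replicate 2 or ATRA replicate 2), with a list median of -1.73. ATRA alone raised 10 of the 11 and ATO alone 4, whereas ATO on top of ATRA raised none and lowered 6. S100A9, a subunit of calprotectin, measured 1.46, 2.28 and 1.64 CPM untreated, 81.0, 83.4 and 75.8 with ATRA, 5.32, 5.91 and 6.13 with ATO, and 58.0, 73.5 and 65.5 with both (-1.95 ± 0.163). HP, haptoglobin, measured 11.3, 13.1 and 10.0 CPM untreated, 92.1, 88.4 and 93.1 with ATRA, 35.0, 36.2 and 38.1 with ATO, and 66.7, 71.2 and 65.3 with both (-2.09 ± 0.105). For both genes the combination lies between the ATO and the ATRA libraries without overlap. CHI3L1 was highest with ATRA and lowest in the combination, at 3140 ± 110 and 1423 ± 67.3 CPM (SD, n = 3; -1.23 ± 0.0645).

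All 9 called members of the 10 NADPH oxidase genes, which encode the phagocyte enzyme that makes superoxide and its partners, were below 0 (median -0.76). ATRA raised all 10 and ATO raised 8. The organiser subunit NCF1 measured 19.1, 18.9 and 15.6 CPM untreated, 542, 544 and 544 with ATRA, 53.4, 54.8 and 55.3 with ATO, and 634, 751 and 648 with both (-1.29 ± 0.0906, adjusted p 3.89e-10 by edgeR). NCF1 was thus highest in the combination and still below the product of 1655 CPM. Its near-identical pseudogenes make its counts uncertain. CYBB, the catalytic subunit, was likewise highest in the combination at 1213 ± 76.9 CPM (SD, n = 3; -0.41 ± 0.0618). The GTPase RAC2 had its lowest mean there, 130 against 179 CPM untreated (-0.95 ± 0.0744), and RAC1 was not called (0.09 ± 0.0606).

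Surface receptors of mature myeloid cells gave 19 calls below 0 and 2 above among 30 tested, with a list median of -0.62. CCR2, the receptor for the chemokine CCL2, measured 66.2, 67.2 and 65.8 CPM untreated, 54.1, 58.6 and 58.0 with ATRA, 21.8, 21.4 and 18.1 with ATO, and 4.15, 4.46 and 3.63 with both (-2.10 ± 0.116). The combination libraries lay below the other 9 without overlap. ITGAM, the CD11b integrin used as a mark of differentiation, measured 6.38, 7.35 and 5.91 CPM untreated, 46.8, 44.5 and 37.8 with ATRA, 11.0, 9.16 and 9.24 with ATO, and 26.1, 29.6 and 27.9 with both (-1.20 ± 0.142). The combination raised ITGAM less than ATRA alone did. ITGAL (-0.97 ± 0.0661), the G-CSF receptor CSF3R (-0.87 ± 0.0785) and the chemokine receptor CXCR2 (-1.06 ± 0.0974) were also below 0. FCER1G was not called (-0.15 ± 0.086), but it was called without combination replicate 2 (-0.21, adjusted p 0.0214 by edgeR). CD38, a direct retinoic acid target, was raised by ATRA to 240 ± 3.14 CPM and by the combination to 137 ± 4.02 (SD, n = 3; -0.49 ± 0.0994).

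**Figure D4:**
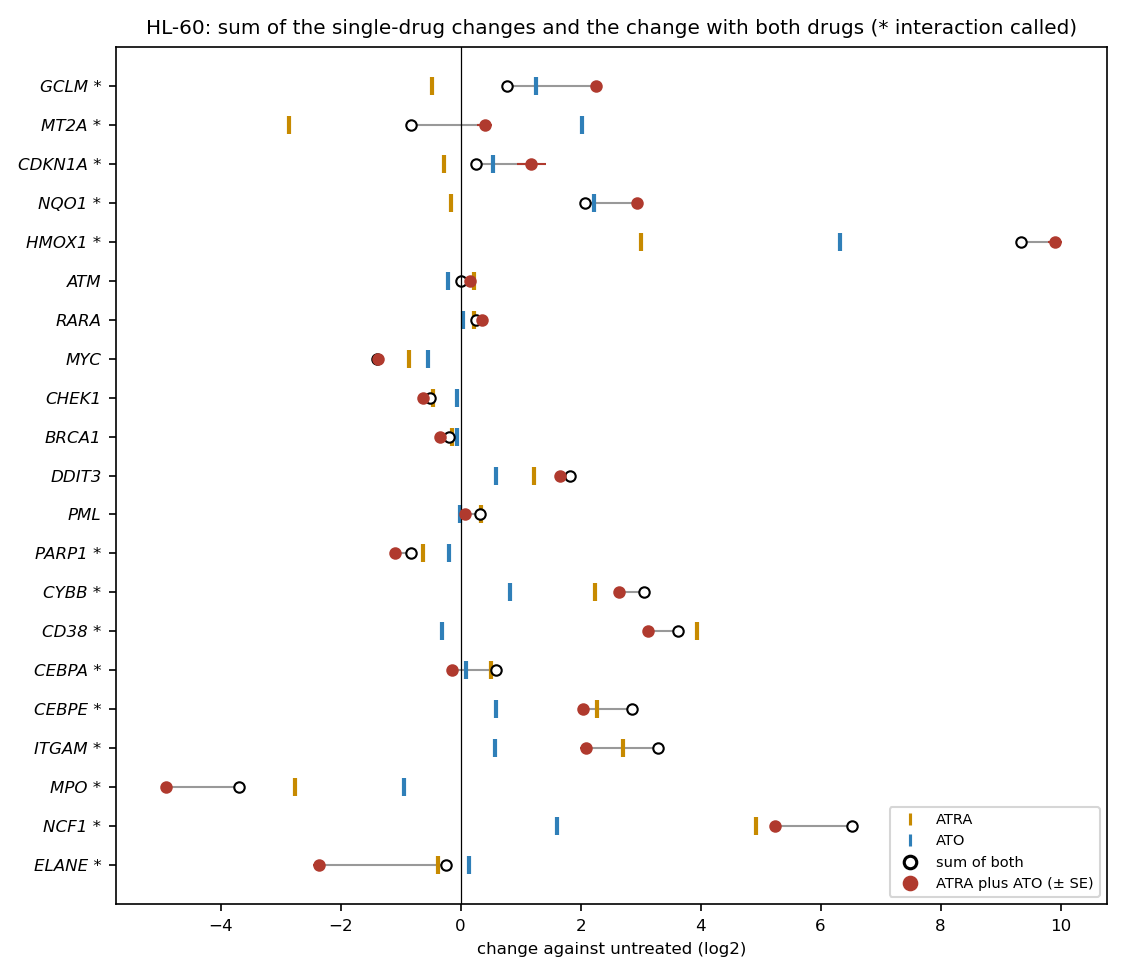
Log2 changes against untreated cells for the 21 tested panel genes other than TGM2. Ticks mark ATRA and ATO alone, open circles their sum and red circles the measured combination with its SE, and asterisks mark a called interaction. The red circle lies to the left of the open one for ELANE, NCF1, MPO and ITGAM, and to the right for GCLM, MT2A and NQO1.

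Transcription factors of the myeloid lineage were mixed, with 10 of 20 below 0 and 4 above. IRF8, which specifies monocytes, measured 120, 122 and 117 CPM untreated, 66.4, 67.7 and 65.8 with ATRA, 82.4, 75.7 and 79.8 with ATO, and 7.43, 8.81 and 7.15 with both (-2.49 ± 0.0915, adjusted p 3.6e-14 by edgeR). The 3 combination libraries of IRF8 lie far below the other 9, and the single-drug groups lie between them and the untreated cells. MYB, a factor of immature blood cells, fell from a mean of 414 CPM to 191 with ATRA, 320 with ATO and 67.3 with both (-1.13 ± 0.0625). RUNX1 was close to 154 CPM in untreated and ATRA cells and 91.9 ± 0.854 with both (SD, n = 3; -0.85 ± 0.0667). CEBPA (-0.75 ± 0.0937) and the granulocytic factor CEBPE (-0.83 ± 0.114) were below 0. On the other side, JUN was joined by FOS (1.70 ± 0.202), EGR2 (2.20 ± 0.446) and BCL6 (0.89 ± 0.129). These 3, like FTH1, FTL, HSPB1, PRG2, IL1B, BBC3 and the monocyte genes, were picked out after their values were seen. CEBPB, which was not called, had means of 12.1, 174, 24.0 and 279 CPM (-0.31 ± 0.143, adjusted p 0.0997 by edgeR) and was called without combination replicate 2 (-0.42, adjusted p 0.00434) without ATO replicate 2 (-0.41, adjusted p 0.0329), with library sizes alone (0.049) and with every gene with a read (0.00148).

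Retinoic acid targets and receptors, tested for 18 genes, gave 3 calls above 0 (16.7%, against 14.4% of all tested genes) and 6 below (33.3%, against 18.1%). The list median was -0.25. ATRA had raised 15 of the 18. TGM2, a transglutaminase, measured 0.0235, 0.187 and 0.0886 CPM untreated, 916, 913 and 952 with ATRA, 0.166, 0.0369 and 0.0426 with ATO, and 2388, 2872 and 2573 with both. Its interaction of 1.88 ± 0.654 (adjusted p 0.0304 by edgeR) rests on the few reads of cells without ATRA, and without untreated replicate 2 it was 1.01 with an adjusted p of 0.433. The calls of TGM2 were also lost without untreated replicate 3 (adjusted p 0.0505), ATO replicate 2 (0.0965) and ATO replicate 3 (0.0774), with limma-voom (0.334) and with halved counts (0.128). ATO on top of ATRA raised TGM2 by 1.49 (adjusted p 2.4e-14), a comparison that does not use those libraries. The retinoic acid-degrading enzyme CYP26B1 was at 0.422, 0.112 and 0.0443 CPM untreated, 6.07, 5.74 and 5.04 with ATRA, 0 in all ATO libraries and 7.68, 7.13 and 8.11 with both. Its interaction (6.58 ± 1.27, adjusted p 0.000447 by edgeR) likewise rests on the few reads of cells without ATRA. ATO on top of ATRA made no called change in CYP26B1 (0.44, adjusted p 0.115). Its relative CYP26A1 had at most 12 reads in a library and was not tested. DHRS3, which reduces retinal, had no called interaction at 14.8, 145, 16.5 and 170 CPM (0.07 ± 0.0811). Of the receptors themselves, RXRA was below 0 (-0.44 ± 0.0776) and RARA was not called (0.09 ± 0.105). PML was not called either (-0.26 ± 0.116, adjusted p 0.0997), though it was with the batch number as a block (-0.27, adjusted p 0.0465) without combination replicate 2 (-0.36, adjusted p 0.00494) and with library sizes alone (-0.31, adjusted p 0.04).

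Several chemokines and cytokines stood highest in the combination. Of 20 tested, 6 were above 0 and 4 below, and in 12 all combination libraries lay above the other 9. CCL2, the monocyte attractant and ligand of CCR2, measured 1.36, 0.561 and 1.33 CPM untreated, 102, 103 and 90.0 with ATRA, 3.04, 2.75 and 3.19 with ATO, and 783, 771 and 925 with both (1.57 ± 0.24). The neutrophil attractant CXCL8 had means of 14.7, 60.2, 23.2 and 158 CPM (0.72 ± 0.114). CCL3 measured 0.329, 0.411 and 0.266 CPM untreated, 1.08, 1.09 and 0.890 with ATRA, 0.497, 0.628 and 0.639 with ATO, and 10.3, 14.6 and 14.8 with both (2.90 ± 0.356). CCL4 rose with both drugs to 10.0, 10.8 and 13.8 CPM, from under 0.15 CPM in every untreated and ATO library and under 0.73 CPM with ATRA (4.55 ± 0.719). Near-identical gene copies make the counts of CCL3 and CCL4 uncertain. TNF had means of 3.52, 1.44, 4.22 and 7.82 CPM, lowered by ATRA alone and highest with both (2.19 ± 0.229). VEGFA had no called interaction (0.07 ± 0.0621). IL1B was below 0 (-1.89 ± 0.357): ATO raised it alone, from 0.392 to 1.70 CPM, and made no called change on top of ATRA, from 8.85 to 10.2 CPM.

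Feedback genes of NF-kB, the factor that drives many of these cytokines, gave 5 calls above 0 (27.8%) and 2 below (11.1%) among 18 (median 0.16). The lower calls were 4 without combination replicate 2, and 1 without ATRA replicate 1, ATO replicate 3 or either of the other combination libraries. CD83 (0.49 ± 0.0958), the inhibitor NFKBIA (0.58 ± 0.118) and BCL3 (0.81 ± 0.216) were each highest in the combination. TNFAIP2, with means of 34.0, 220, 66.8 and 475 CPM, had no called interaction (0.13 ± 0.0877). Interferon-stimulated genes gave 3 calls above (8.82%) and 8 below 0 (23.5%) among 34 (median -0.29), against 14.4% and 18.1% of all tested genes. OAS3, an antiviral sensor, was raised by either drug to 29.1 CPM with ATRA and 15.2 with ATO, and ATO on top of ATRA made no called change (-1.29 ± 0.157). USP18, which restrains interferon signalling, had means of 13.7, 3.27, 16.4 and 1.34 CPM (-1.52 ± 0.248).

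Genes of cell death were split. Among 32 members of the BCL2 family, death receptors and caspases, 9 were above 0 and 8 below, with a median of 0.03, and for 24 p53 targets the split was 8 and 5. PMAIP1, which encodes the BH3-only protein NOXA and is counted in both lists, measured 25.6, 23.1 and 22.6 CPM untreated, 70.0, 65.1 and 62.7 with ATRA, 33.1, 33.1 and 38.4 with ATO, and 216, 195 and 222 with both (1.12 ± 0.0977, adjusted p 1.06e-08 by edgeR). Its survival partner MCL1 was also highest with both, at 460 ± 24.1 CPM against 252 ± 4.02 untreated (SD, n = 3; 0.52 ± 0.0596). The death receptor TNFRSF10B (0.60 ± 0.0877) and MDM2 (0.88 ± 0.108) were above 0, while the ATRA-raised survival gene BCL2A1 (-1.04 ± 0.121) and the BH3-only gene BBC3 (-1.15 ± 0.236) were below. The p53 counts moved with single libraries: calls above 0 numbered 5 without untreated replicate 2 or 3, and calls below 0 numbered 3 without ATRA replicate 1 or 2, ATO replicate 1 or 2, or combination replicate 3. CDKN1A, the p21 cell-cycle inhibitor, was low throughout, with means of 1.24 CPM with ATRA, 2.17 with ATO and 3.40 with both (0.92 ± 0.343, adjusted p 0.0431 by edgeR), and lost its call in 8 of the 12 leave-one-out fits, where its adjusted p reached 0.116, and with library sizes alone (0.0572).

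The title of the series concerns the DNA damage response, and its gene groups were examined next. Among 37 DNA replication genes 17 were below 0 and 2 above (median -0.17), and in 26 all combination libraries lay below the other 9. MCM3, a subunit of the replicative helicase, measured 700, 736 and 688 CPM untreated, 590, 585 and 575 with ATRA, 627, 625 and 628 with ATO, and 334, 342 and 318 with both (-0.64 ± 0.0553, adjusted p 9.62e-09 by edgeR). Either drug lowered MCM3 a little, and the combination libraries lie far below the other 9. The polymerase subunit POLD1 had means of 116, 114, 112 and 60.4 CPM, with no called change by ATO alone (-0.04, adjusted p 0.71) and a fall of 0.91 on top of ATRA (-0.87 ± 0.0994). MCM2 (-0.61 ± 0.0735) and MCM4 (-0.44 ± 0.0564) departed in the same direction. PCNA, the sliding clamp, was not called (-0.12 ± 0.0589) but was called without combination replicate 2 (-0.15, adjusted p 0.0324 by edgeR) without untreated replicate 2 (-0.16, adjusted p 0.0461) and with library sizes alone (-0.18, adjusted p 0.0222).

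Base excision and single-strand break repair gave 10 calls below 0 and 1 above among 25 tested (median -0.25). PARP1, which senses strand breaks, measured 742, 729 and 706 CPM untreated, 477, 471 and 460 with ATRA, 624, 627 and 643 with ATO, and 339, 348 and 333 with both (-0.26 ± 0.0529, adjusted p 0.000489 by edgeR). All 3 combination libraries of PARP1 were the lowest of the 12. The glycosylases MPG (-1.05 ± 0.123) and OGG1 (-0.75 ± 0.0907) and the ligase LIG1 (-0.52 ± 0.0745) departed further, and the glycosylase TDG was above 0 (0.64 ± 0.0748). Homologous recombination and Fanconi anaemia genes gave 12 below and 3 above 0 among 36 (median -0.13), led by FANCE (-1.29 ± 0.125), FANCG (-0.77 ± 0.0933) and UHRF1 (-0.75 ± 0.0685), with NBN above (0.65 ± 0.0901). Without combination replicate 2 the calls above 0 numbered 5. BRCA1 was not called (-0.15 ± 0.104).

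The other repair and checkpoint lists gave calls on both sides of 0, where 14.4% of all tested genes were above and 18.1% below. Non-homologous end joining gave 5 above (29.4%) and 3 below 0 (17.6%) among 17. LIG4, its ligase, measured 25.4, 21.5 and 22.5 CPM untreated, 31.3, 32.8 and 31.9 with ATRA, 18.2, 20.1 and 18.3 with ATO, and 60.7, 44.1 and 60.0 with both (1.07 ± 0.136), whereas the catalytic kinase PRKDC was not called (-0.11 ± 0.0754). The calls below 0 in that list numbered 5 without combination replicate 2 and 1 without ATO replicate 2. Nucleotide excision repair had 7 above (31.8%) and 3 below 0 (13.6%) among 22, and 4 above without untreated replicate 2 or with library sizes alone as the scaling. The damage sensor DDB2 was the largest departure in it (-0.91 ± 0.153). Mismatch repair had 2 above (13.3%) and 4 below 0 (26.7%) among 15, and 9 below with library sizes alone. Damage checkpoint signalling had 3 above (12.0%) and 6 below 0 (24.0%) among 25, with H2AX (-0.49 ± 0.112) and TIMELESS (-0.40 ± 0.0666) among the latter. Its calls above 0 numbered 7 without combination replicate 2, 5 without untreated replicate 2 or with the batch block, and 1 without ATRA replicate 2, and its calls below 0 numbered 10 with library sizes alone. CHEK1 was not called (-0.11 ± 0.0724). ATM was not called (0.15 ± 0.11), but it was without combination replicate 2 (0.25, adjusted p 0.0163 by edgeR) and without untreated replicate 2 (0.25, adjusted p 0.0466).

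Of 32 genes of G2 and mitosis, 3 were above 0 (9.38%, against 14.4% of all tested genes). Below 0 were 6 (18.8%), near the 18.1% of all tested genes, and the list median was -0.02. CDK1, the mitotic kinase, was above (0.43 ± 0.0701) and AURKB below (-0.55 ± 0.0936). The calls above 0 in that list ranged from 1 without untreated replicate 3 or combination replicate 3 to 5 without untreated replicate 2 or combination replicate 2. MYC was not called, at means of 660, 362, 456 and 254 CPM (0.03 ± 0.0727, adjusted p 0.833 by edgeR). Among G1 regulators, CCND3 was raised by ATO alone, from 937 to 1219 CPM, and lowered by ATO on top of ATRA, from 508 to 361 CPM (-0.87 ± 0.0722). MXD1, a MYC antagonist, was highest with both, with means of 12.5, 19.1, 15.6 and 40.5 CPM (0.77 ± 0.105). In cholesterol metabolism 7 of 26 were above 0 and 7 below. The exporter ABCA1 measured 9.22, 10.1 and 9.72 CPM untreated, 94.4, 101 and 82.7 with ATRA, 7.33, 7.37 and 6.20 with ATO, and 159, 112 and 148 with both (1.06 ± 0.156). The synthesis gene HMGCS1 (0.62 ± 0.0748) and the sterol sensor INSIG1 (0.57 ± 0.0752) were also above 0. The calls below 0 numbered 4 without untreated replicate 3, ATRA replicate 2 or ATO replicate 3, and 11 with library sizes alone.

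The 10 largest departures in each direction among abundant protein-coding genes complete the list. Above 0, apart from genes already described, were the matrix protease MMP1, at 0.369, 0.588, 0.395 and 11.0 CPM (4.07 ± 0.625), the small GTPase gene RND3, the prostaglandin E synthase PTGES, the acetylcholine synthesis gene CHAT and TNFAIP8L3. PTGES measured 13.5, 13.4 and 15.0 CPM with ATRA and 136, 151 and 161 with both, and at most 0.0748 CPM in any library without ATRA, so its interaction (adjusted p 0.01 by edgeR) was lost without untreated replicate 2 (adjusted p 0.847) and in the fit of 24 libraries (0.136). RND3 was at 7.38, 6.42 and 7.64 CPM with both drugs and under 0.51 CPM elsewhere, and its call was lost without untreated replicate 1 (adjusted p 0.0736) or 3 (0.0715). CHAT shows the other kind of positive value: it was at 14.9 CPM untreated, 1.16 with ATO and under 0.15 with ATRA or both, and its call was lost without combination replicate 1 (2.74, adjusted p 0.0683) or 3 (2.74, adjusted p 0.0734). TNFAIP8L3 measured 10.7, 10.0 and 12.0 CPM untreated, 0.689, 0.669 and 0.424 with ATRA, 14.1, 10.8 and 11.8 with ATO, and 3.66, 4.16 and 4.84 with both (2.65 ± 0.235), so that ATO reversed part of the fall with ATRA.

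Below 0, the leading genes differed in their pattern of levels. In one set the combination left little of a transcript: F13A1, a subunit of coagulation factor XIII, had means of 51.0, 2.32, 19.2 and 0.0911 CPM, ZDHHC11B 25.8, 5.34, 20.5 and 0.438 CPM (-3.39 ± 0.321), INKA1 10.7, 5.70, 9.45 and 0.576 CPM (-3.13 ± 0.249), and MEFV, which encodes pyrin, 2.82, 1.77, 5.05 and 0.341 CPM (-3.25 ± 0.429). The relaxin receptor RXFP1 went from 6.04 ± 0.360 CPM (SD, n = 3) untreated to 0 in all 3 combination libraries (adjusted p 0.0176 by edgeR), and its call was lost with limma-voom (-1.94, adjusted p 0.111) and halved counts (adjusted p 0.0777). In another set ATRA raised a transcript that was near 0 untreated and stood little above 0 with ATO alone. ATO on top of ATRA did not raise it further. The receptor P2RY13 was at 0 in untreated cells and at 0.0414, 0.0369 and 0.213 CPM with ATO. It measured 10.4, 12.1 and 11.3 CPM with ATRA and 9.35, 11.1 and 10.4 with both (adjusted p 0.00414 by edgeR). On top of ATRA, ATO made no called change in P2RY13 (-0.13), so its interaction rests on the few reads of cells without ATRA. The lipase PNPLA3 had the same form, with 0.300 CPM with ATO, 11.6 ± 0.952 with ATRA and 9.56 ± 0.225 with both (SD, n = 3). BATF2 had 0.0649 CPM with ATO, 6.35 ± 0.407 with ATRA and 3.02 ± 0.503 with both. In BATF2, ATO on top of ATRA made a called fall (-1.06, adjusted p 0.00028 by edgeR). The BATF2 interaction call was lost without ATO replicate 2 (adjusted p 0.114), with halved counts (0.0522) and in the fit of 24 libraries (0.0537). The remaining genes were highest in the combination, where ATO on top of ATRA raised them. ADGRG3 had means of 0.0849, 24.2, 1.29 and 33.6 CPM (-3.41 ± 0.342). EDNRB, an endothelin receptor, was at 0 in untreated cells, 0.388, 0.317 and 0.466 CPM with ATRA, 1.41, 1.03 and 1.06 with ATO, and 6.26, 6.79 and 6.21 with both (adjusted p 0.00186), so that every combination library lay above the other 9 despite the negative sign.

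The same contrast in NB4, the promyelocytic leukaemia line with the PML-RARA fusion, served to show where HL-60 differs. In a fit of all 24 libraries with 17930 tested genes, the difference between the lines was called for 2583 (14.4%), 1478 higher in HL-60 (8.24%) and 1105 lower (6.16%). In HL-60 the interaction was higher than in NB4 for 12 of the 19 unfolded protein response genes and lower for 1, for 15 of the 32 ribosome biogenesis genes and lower for none, and for 14 of the 28 NRF2 targets and lower for 1. It was higher for 11 of 18 NF-kB genes and lower for none, and higher for 9 of 20 chemokines and cytokines and lower for 1. Of the 11 promyelocytic markers it was lower for 7 and higher for 1. The 7 include ELANE, whose mean was at or under 0.195 CPM in every NB4 group. For primary granule genes the line difference was called higher for 5 and lower for 6, and for NADPH oxidase genes higher for 4 and lower for 1.

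**Figure D5:**
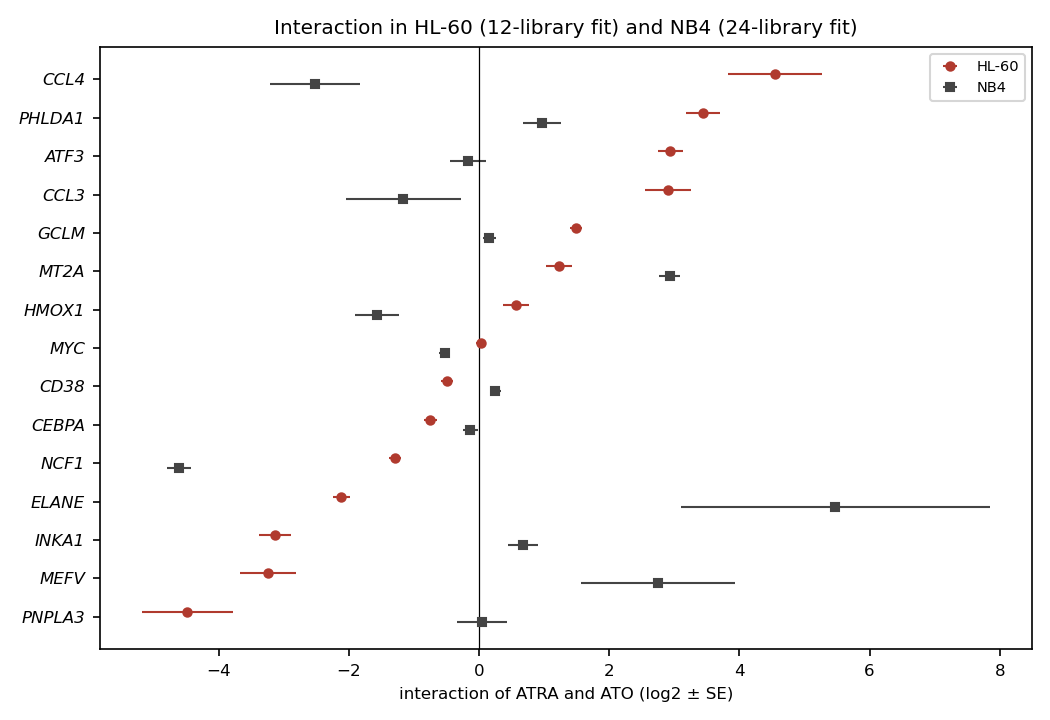
Interaction of ATRA and ATO (log2 ± SE) in HL-60 (red circles, 12-library fit) and NB4 (dark squares, 24-library fit) for 15 genes. They are those of the largest departures and the panel whose difference between lines was called. Genes named only as list members are left out. CCL4, ATF3, CCL3 and GCLM lie further right in HL-60, and MEFV, INKA1 and PNPLA3 further left. The wide bar of ELANE in NB4 reflects levels at or under 0.195 CPM there. MEFV was also low in NB4, with every group mean at or under 0.257 CPM.

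On GRCh38 with GENCODE v29, the genes whose values are given in full lie as follows. JUN is on chromosome 1 from 58780788 to 58784327, ATF3 on chromosome 1 from 212565334 to 212620777, GCLM on chromosome 1 from 93885205 to 93909456 and PHLDA1 on chromosome 12 from 76025447 to 76033932. HSPA5 lies on chromosome 9 from 125234853 to 125241330, SQSTM1 on chromosome 5 from 179806398 to 179838078, and IRF8 on chromosome 16 from 85898803 to 85922609. PRTN3 spans 840960 to 848175 and ELANE 851014 to 856247 on chromosome 19, where they are close neighbours. CCR2 is on chromosome 3 from 46353734 to 46360928 and NCF1 on chromosome 7 from 74773962 to 74789315.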

How the data were processed

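RNA-seq libraries were made from poly(A) RNA and sequenced as paired ends, per the labels' protocols. Per the submitters' processing notes, fastp, HISAT2, featureCounts and DESeq2 were used with GRCh38, while the sources used here give no versions, strand use or annotation release. The authors deposited 1 table of raw counts per gene. Of counts from 1 to 9, 75.22% were even, against 51.74% of those of 500 or more, as when both mates are counted, so halved counts were tried.

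Genes passing edgeR's filterByExpr were scaled by TMM and tested with edgeR 4.0.16 (glmQLFit, glmQLFTest; R 4.3.3) over 12 HL-60 libraries, with Benjamini-Hochberg adjustment; NB4 was compared in a fit of 24 libraries. In simulated data for the interaction, over 15550 genes, the test recovered 49.3% of genes changed 1.5-fold, 67.2% at 2-fold and 75.8% at 4-fold, with 7.25% false calls. Only 67, 67 and 66 genes were changed there, a far smaller share than the 32.5% called in the data. They were drawn from genes whose product of single-drug folds needed no upper or lower limit. These rates may therefore differ from those of the real data. The labels give each library a batch number equal to its replicate number in every group. It was taken as pairing the samples in the batch block and left out of the main fit. Deviations of same-numbered libraries correlated at -0.00807 to 0.0589 over 18 pairs, and those of differently numbered libraries at -0.0682 to 0.0197.

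Named genes were the 10 largest called departures each way among protein-coding genes of at least 5 CPM with a stable sign, a panel of 24 genes, and up to 4 called and 1 uncalled member per list. The members and lists were chosen with earlier results of these data known. Alternatives were DESeq2, limma-voom, RLE, library sizes alone, other filters, halved counts, the batch block and leaving out each library.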

Additional observations from a re-analysis of the deposited data

Results flagged for a closer look

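Of 42 genes among the largest departures and the panel, tested in both lines, 15 had an interaction that differed between HL-60 and NB4. The difference itself was tested by edgeR in the fit of 24 libraries, with 8 higher and 7 lower in HL-60. Genes named only as list members were not counted here. Some of them also differed, such as IRF8 (-3.28 ± 0.285) and the NADPH oxidase list member PRAM1 (2.88 ± 0.13). Values are the HL-60 interaction minus the NB4 interaction on the log2 scale. No explanation was tested for any of them.

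Higher in HL-60 were the chemokines CCL4, by 7.07 ± 1.09 (NB4 interaction -2.53), and CCL3, by 4.07 ± 1.09 (NB4 -1.17). Both were near 0 in NB4 without ATRA, with untreated and ATO means of 0.056 and 0.150 CPM for CCL4 and 0.152 and 0.091 for CCL3. The NB4 interaction of CCL3 was not called (adjusted p 0.425 by edgeR). NCF1 differed by 3.33 ± 0.24, since its shortfall was greater in NB4 (-4.62). ATF3 differed by 3.12 ± 0.366 (NB4 -0.17) and PHLDA1 by 2.47 ± 0.479 (NB4 0.97). Among the oxidative stress genes, HMOX1 differed by 2.15 ± 0.408 (NB4 -1.57) and GCLM by 1.33 ± 0.143 (NB4 0.16). MYC, which had no called interaction in HL-60, differed by 0.56 ± 0.124 (NB4 -0.53).

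Lower in HL-60 were MEFV, by -5.98 ± 1.32 (NB4 2.75), PNPLA3, by -4.52 ± 0.858 (NB4 0.04), and INKA1, by -3.80 ± 0.341 (NB4 0.67). MT2A differed by -1.70 ± 0.251, with a larger positive interaction in NB4 (2.93). CD38 differed by -0.74 ± 0.124 (NB4 0.25) and CEBPA by -0.61 ± 0.168 (NB4 -0.13). ELANE differed by -7.59 ± 2.32 (NB4 5.47), but its mean level was at or under 0.195 CPM in every NB4 group. MEFV was also near 0 in NB4, with means of 0.062, 0.079, 0.027 and 0.257 CPM in untreated, ATRA, ATO and combination cells. The NB4 interaction of MEFV was not called (adjusted p 0.109 by edgeR). PNPLA3 had 0.0469, 0 and 0 CPM in the untreated HL-60 libraries. Its HL-60 interaction ran from -7.16 to -3.89 when a library was left out.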

How the results depend on the processing

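The 5170 interaction calls ranged from 4502 to 6208 when each library was left out, the highest without combination replicate 2. DESeq2 called 2466 above and 2751 below 0, limma-voom 2260 and 2834, RLE size factors 2448 and 2758, halved counts 2427 and 2814, and the fit of 24 libraries 2047 and 2539. Library sizes alone moved the median to -0.11 and called 1792 above and 3362 below 0, so that 34.8% of calls lay above 0 against 44.2%. At an adjusted p below 0.01 there were 1535 and 2003. Between 84.6% and 98.6% of the calls were shared with the other settings at the 0.05 threshold, with 0 of opposite sign. With the batch number as a block 5321 genes were called, and among named genes it changed the call of PML and of TOP2A (-0.20, adjusted p 0.0433 by edgeR, against -0.19 and 0.166) and no other. The sign turned for 8 uncalled genes. Leaving out a library gave -0.00158 to 0.163 for RARA, -0.03783 to 0.08647 for MYC, -3.561 to 1.675 for MMP8, -0.03361 to 0.06539 for PGD, -0.004671 to 0.06302 for CALR, -0.0814 to 0.02643 for BIRC5 and -0.04831 to 0.04627 for TOPBP1. Library sizes alone gave -0.03048 for MYC, -0.0324 for DTX3L, -0.04038 for PGD and -0.01741 for CALR, and TOPBP1 was at 0.007526 with RLE and 0.006754 with DESeq2. The cause was not tested. Low counts limit the values of genes near 0 reads in a group.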

Other observations

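Genes outside the lists, chosen after their values were seen because their interaction had some of the smallest p-values, showed the same kinds of departure. NLRP3, the sensor of an inflammasome, measured 101, 90.0 and 98.2 CPM untreated, 142, 140 and 143 with ATRA, 71.6, 69.8 and 70.9 with ATO, and 21.2, 18.0 and 17.6 with both (-2.46 ± 0.0889). ATRA alone raised it and the combination libraries were the lowest of all 12. SIGLEC6, a sialic acid-binding receptor, measured 158, 158 and 157 CPM untreated, 20.9, 21.8 and 20.0 with ATRA, 103, 101 and 96.1 with ATO, and 2.71, 1.85 and 2.42 with both (-2.54 ± 0.113). On CPM the difference of differences for SIGLEC6 is positive, so its sign turns with the scale.

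LGALS3, which encodes galectin-3, measured 74.4, 79.7 and 74.8 CPM untreated, 65.3, 70.6 and 66.3 with ATRA, 199.6, 199.5 and 219 with ATO, and 587, 654 and 667 with both (1.81 ± 0.077). SYNJ2, a phosphoinositide phosphatase gene, stood between 28.0 and 31.8 CPM in every library without the combination and at 105, 101 and 111 with it (1.80 ± 0.0809). The tyrosine kinase gene FGR was raised by ATRA from a mean of 5.81 to 325 CPM and stood at 300 with both, while ATO alone gave 27.5 CPM (-2.37 ± 0.0951).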
